A study of Mus musculus with 36 samples.

Results

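Polycomb repressive complex 2 (PRC2) is the enzyme complex that methylates lysine 27 of histone H3 (H3K27), and the H3K27 demethylases remove that mark. The genes described here were chosen by name: the methyltransferases *Ezh1* and *Ezh2*, the core subunits *Eed* and *Suz12*, the accessory subunits *Jarid2*, *Mtf2*, *Phf1* and *Phf19*, and the demethylases *Kdm6a* and *Kdm6b*. All 10 of these 10 genes were listed for every library, and all 10 passed the filter on low values in each of the 3 experiments.

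PRC2 needs *Ezh1* or *Ezh2* for catalysis, *Suz12* as the scaffold that holds the complex together, and *Eed* to bind trimethylated H3K27 (H3K27me3) already in place, which stimulates the enzyme. The Polycomb-like proteins encoded by *Mtf2*, *Phf1* and *Phf19* bring the complex to CpG-rich DNA in the variant called PRC2.1, while *Jarid2* and *Aebp2* belong to the variant PRC2.2. In pluripotent cells H3K27me3 covers promoters of developmental regulators, and in the germline the mark is reorganised during the formation of primordial germ cells (PGCs).

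The study followed mouse epiblast stem cells (EpiSCs), which are in the primed pluripotent state, as BMP4 moved them to the naive state through PGC-like cells. RNA was sequenced in 11 bulk libraries out of 36 samples of the series. They come from 3 experiments: Day 3 cells sorted for the receptor *c-Kit* (2 *c-Kit*+ and 2 *c-Kit*- libraries), Day 6 BV+SC+ cells with EpiSCs (2 and 3 libraries), and Day 3 cells with or without a DOT1L inhibitor (DOT1Li, 1 library each). The sorted libraries held between 1726038 and 1841442 expected counts, the EpiSC libraries between 2444211 and 3070115, the BV+SC+ libraries 14778809 and 18099059, and the DOT1Li libraries 4776143 with and 4577685 without inhibitor.

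EpiSCs were grown in N2B27 medium with Activin A, bFGF and the tankyrase inhibitor XAV939. For the Day 3 cells this was replaced by Stage 1 medium, which holds Vitamin C, bFGF, LiCl, LIF, CHIR99021 and BMP4 together with a DOT1L inhibitor (EPZ5676 or SGC0946) and EPZ6438. EPZ6438 inhibits EZH2 itself, so the activity of this enzyme was blocked by design in these cells, and the RNA levels given here do not measure its activity. In the DOT1Li experiment the labels name only the presence or absence of SGC0946. BV+SC+ cells carry fluorescent reporters of *Blimp1* (*Prdm1*) and *Stella* (*Dppa3*) and were sorted for both after Stage 1 medium with EPZ5676 and EPZ6438, followed by N2B27 medium with PD0325901, CHIR99021 and Vitamin C. The labels give this protocol for both BV+SC+ libraries but tag replicate 1 with 2iJi and replicate 2 with GK15. GK15 is also the name of a medium that the study tried in the second stage, and a JAK inhibitor was added at that stage in another of its experiments. The labels do not say whether the tags name media, so the 2 libraries may differ in culture, and a difference in culture and the replicate cannot be told apart. Neither the labels nor the methods say that replicates came from separate cultures, so p-values measure the spread between these libraries, which may be technical.

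The experiments also differed in their sex chromosomes. *Xist*, the RNA that coats the inactive X chromosome, stood at 52.2 and 59.5 TPM (a measure in which counts are divided by transcript length and scaled to the same total in each library) in *c-Kit*+ cells and at 37.2 and 74.3 TPM in *c-Kit*- cells. It was at most 1.83 TPM in the other libraries. *Eif2s3y* and *Ddx3y*, which lie on the Y chromosome, were at 0 TPM in all 4 sorted libraries, while *Eif2s3y* ranged from 47.8 to 149.5 TPM in the other libraries. The sorted cells therefore carried a different set of sex chromosomes from the cells of the other experiments, and levels from different experiments are only set side by side here. The methods describe EpiSCs of more than 1 origin, and the labels do not say which was used for each library. In bulk RNA, fewer cells of a type and less RNA per cell cannot be told apart.

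Marker genes set the groups apart, with exceptions among the sorted cells. In EpiSCs, the summed level of 5 primed epiblast markers was 1113, 1054 and 1045 TPM, led by *Dnmt3b*, and that of 6 germ cell markers was 1.84, 1.28 and 3.00 TPM. In BV+SC+ cells the germ cell markers summed to 1649.8 and 1694 TPM, led by *Dppa3*. In *c-Kit*- cells, 8 trophoblast markers summed to 4335 and 3915 TPM, led by *Krt8*, and the germ cell markers to 185 and 171 TPM, nearly all of it *Tfap2c*, with *Nanos3* and *Prdm14* at 0. In *c-Kit*+ cells the same trophoblast markers summed to 861 and 647 TPM and the germ cell markers to 395 and 325 TPM, led by *Tfap2c*. Of the 4 germ cell markers tested between the sorted populations, 3 were higher in *c-Kit*+ cells, beside 20.2% of all genes. These were *Nanos3* (76.1 and 62.0 TPM, against 0), *Dppa3* (log2 5.67) and *Prdm1* (log2 4.77), and *Tfap2c* did not pass the test (log2 0.23, edgeR adjusted p = 0.0953). Of the 7 trophoblast markers tested, 4 were lower in *c-Kit*+ cells, among them *Krt8* (log2 −2.22), beside 21.3% of all genes. Of the rest, 2 did not pass, and *Cdx2* was 2.89-fold higher (log2 1.53, edgeR adjusted p = 0.0015). The 6 naive pluripotency markers summed to 139 and 125 TPM in *c-Kit*+ cells and to 133 and 126 TPM in *c-Kit*- cells. *Klf4* led these sums, at 84.5 and 83.8 against 104.3 and 104.8 TPM, so they say little of the other markers. Of the 4 tested, *Esrrb* was 10.1-fold higher in *c-Kit*+ cells (log2 3.34, edgeR adjusted p = 3.74e-05) and *Tbx3* was lower (log2 −0.99, edgeR adjusted p = 0.0312). *Klf4* (log2 −0.23) and *Tfcp2l1* (log2 0.16) did not pass the test. The populations compared below thus differed in cell type as well as in the PRC2 genes, and the part of cell type in each difference was not tested.

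**Figure D1:**
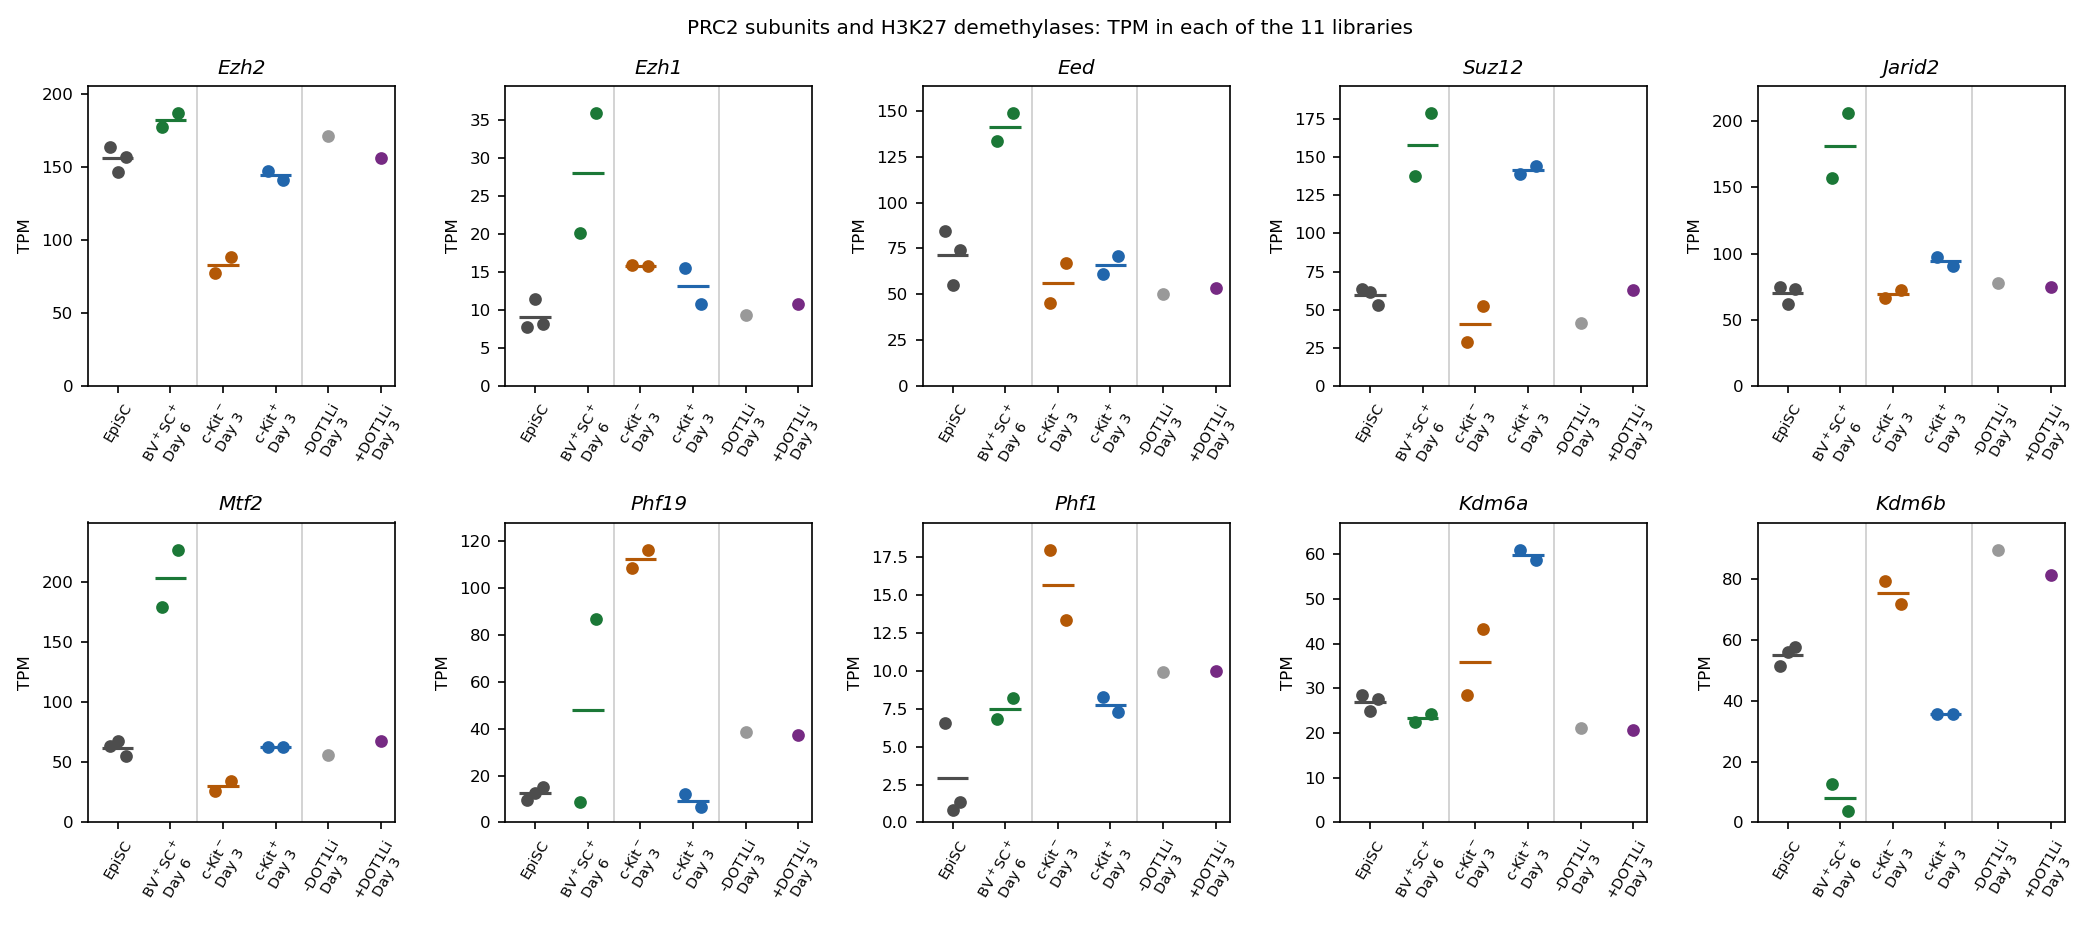
Level of each PRC2 subunit and H3K27 demethylase in TPM (vertical axes, linear from 0) in the libraries of the 6 groups; each point is a library, and horizontal lines are means of groups with 2 or 3 libraries. *Suz12* and *Mtf2* are high in both BV+SC+ libraries, *Phf19* is high in both *c-Kit*- libraries and in 1 of the 2 BV+SC+ libraries, and *Kdm6b* is low in both BV+SC+ libraries.

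Across all libraries the members differed both in level and in how much they varied. *Ezh2* had the highest median level, 156 TPM, and its highest library was 2.41 times its lowest. The demethylase gene *Kdm6b* had a median of 56.0 TPM and a highest library 23.5 times its lowest. *Phf1*, with a median of 8.18 TPM, spanned 21.9-fold and *Phf19*, with a median of 15.0 TPM, spanned 18.0-fold. Among the core and accessory subunits, *Suz12* spanned 6.15-fold and *Mtf2* 8.77-fold, while *Jarid2*, *Eed* and *Kdm6a* each spanned less than 4-fold. The steadiest member was thus the catalytic subunit, and the most variable ones were a demethylase and 2 Polycomb-like subunits.

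The first comparison asks how *c-Kit*+ cells, which the study places on the way to the naive state, differ from *c-Kit*- cells with trophoblast-like expression. *Suz12*, *Mtf2*, *Kdm6a*, *Ezh2* and *Jarid2* were higher in *c-Kit*+ cells, with *Suz12* leading, while *Phf19* and *Kdm6b* were higher in *c-Kit*- cells. *Ezh1*, *Eed* and *Phf1* did not pass the test. Of the 10 members, 7 had an adjusted p below 0.05 in edgeR's quasi-likelihood test with Benjamini-Hochberg adjustment over all 11018 genes tested, where 41.5% of all genes did so. With DESeq2 the members called were also 7, while the genes called were 2755 in place of 4574. Higher in *c-Kit*+ cells were 5 members, beside 20.2% of all genes, and higher in *c-Kit*- cells were 2, beside 21.3%. The threshold of the study's methods is a p below 0.05 with more than a 2-fold difference in DESeq2. With edgeR's unadjusted p it was passed by 3 members, *Suz12*, *Mtf2* and *Phf19*, beside 24.4% of all genes. DESeq2's unadjusted p also gave 3 members. Without *c-Kit*- replicate 2, *Kdm6a* (log2 1.04) and *Phf1* (log2 −1.09) also differed more than 2-fold. Without *c-Kit*- replicate 1, *Mtf2* fell short of 2-fold (log2 0.84). The median log2 fold change of the members was 0.55, against 0.03 over all genes tested. With so large a background, a count of members called says little on its own, and the individual genes follow.

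*Suz12*, the scaffold of PRC2, was at 139 and 144 TPM in *c-Kit*+ cells and at 29.0 and 52.4 TPM in *c-Kit*- cells. The populations did not overlap, and the share of all genes that did not overlap was not counted. The *c-Kit*- libraries differed from each other more than the *c-Kit*+ libraries did. The fold change was 4.004 (log2 2.00, SE 0.26, n = 2 and 2, edgeR adjusted p = 0.000327), and only 8.36% of the genes tested changed more. Leaving out *c-Kit*- replicate 2 raised the log2 fold change to 2.62, and leaving out replicate 1 lowered it to 1.54. The average length RSEM assigned to *Suz12* transcripts was 3700 bases in *c-Kit*- replicate 1 and between 4274 and 4365 bases in the other sorted libraries, so that library also differed in the isoforms its reads were given to.

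*Ezh2*, the methyltransferase most abundant in dividing cells, was at 147 and 141 TPM in *c-Kit*+ cells and at 77.3 and 88.2 TPM in *c-Kit*- cells. Both *c-Kit*- libraries were below all 9 other libraries of the series. The difference was 1.78-fold (log2 0.84, SE 0.12, n = 2 and 2, edgeR adjusted p = 0.000557). *Eed*, the reader of H3K27me3, was at 60.9 and 71.1 TPM in *c-Kit*+ cells and at 45.3 and 67.3 TPM in *c-Kit*- cells. These ranges overlapped, and its log2 fold change of 0.44 (95% interval 0.02 to 0.87) did not pass adjustment (edgeR adjusted p = 0.0843). The 3 core genes thus did not differ to the same degree: the ratio of *Suz12* to *Ezh2* by TPM was 0.944 and 1.02 in *c-Kit*+ cells and 0.375 and 0.594 in *c-Kit*- cells.

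*Ezh1*, the paralog of *Ezh2* that is typical of resting cells, was at 15.5 and 10.8 TPM in *c-Kit*+ cells and at 15.9 and 15.7 TPM in *c-Kit*- cells. The log2 fold change was −0.16 (95% interval −0.75 to 0.42, edgeR adjusted p = 0.652), and its sign turned to 0.10 without *c-Kit*- replicate 1. *Ezh2* made up 90.5% and 92.9% of the summed *Ezh1* and *Ezh2* TPM in *c-Kit*+ cells and 82.98% and 84.9% in *c-Kit*- cells. The share of *Ezh2* was thus lower in both *c-Kit*- libraries, with the fall of *Ezh2* and not a called rise of *Ezh1* beneath it.

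The accessory subunits divided sharply. *Mtf2*, the main Polycomb-like subunit of pluripotent cells, was at 62.9 and 62.5 TPM in *c-Kit*+ cells and at 25.9 and 34.8 TPM in *c-Kit*- cells. It was 2.28-fold higher in *c-Kit*+ cells (log2 1.19, SE 0.24, n = 2 and 2, edgeR adjusted p = 0.00334). *Tmed5*, which overlaps *Mtf2* on the opposite strand, was at 43.8 and 45.4 TPM in *c-Kit*+ cells and at 12.8 and 54.8 TPM in *c-Kit*- cells, low in *c-Kit*- replicate 1, without which *Mtf2* fell short of 2-fold (log2 0.84). *Phf19*, a Polycomb-like subunit that binds the active mark H3K36me3 through its Tudor domain, went the other way. It was at 11.96 and 6.48 TPM in *c-Kit*+ cells and at 108 and 116 TPM in *c-Kit*- cells, where it was the most abundant of the 10 members. This 10.3-fold difference (log2 −3.37, SE 0.21, n = 2 and 2, edgeR adjusted p = 3.87e-06) was the largest among the members, and 2.31% of all genes tested changed more.

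*Phf1*, the third Polycomb-like gene, was at 8.25 and 7.27 TPM in *c-Kit*+ cells and at 18.0 and 13.3 TPM in *c-Kit*- cells. Counts were low, and the log2 fold change of −0.87 (95% interval −1.64 to −0.10) did not pass adjustment (edgeR adjusted p = 0.0667). With at least 10 counts in every library it was called (log2 −0.90, edgeR adjusted p = 0.0402). With DESeq2 it was not (log2 −0.89, DESeq2 adjusted p = 0.29). Without *c-Kit*- replicate 2 the log2 fold change was −1.09, and without replicate 1 it was −0.66. Of the exonic bases of *Phf1*, 39.3% also lie in exons of *Cuta* on the opposite strand, a gene at 125 and 132 TPM in *c-Kit*+ cells and at 211 and 212 TPM in *c-Kit*- cells. The strand setting of the counting is not given in the sources used here, so reads of these 2 genes may not have been told apart. *Jarid2*, the cofactor of PRC2.2, was at 97.6 and 90.7 TPM in *c-Kit*+ cells and at 66.7 and 72.5 TPM in *c-Kit*- cells. It was 1.57-fold higher in *c-Kit*+ cells (log2 0.65, SE 0.10, n = 2 and 2, edgeR adjusted p = 0.00101).

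Taken as shares, the Polycomb-like pool was of opposite make-up in the sorted populations. *Mtf2* held 75.7% and 82.0% of the summed TPM of *Mtf2*, *Phf1* and *Phf19* in *c-Kit*+ cells and 17.0% and 21.1% in *c-Kit*- cells. *Phf19* held 14.4% and 8.50% in *c-Kit*+ cells and 71.2% and 70.7% in *c-Kit*- cells. The pool itself was larger in *c-Kit*- cells, 152 and 164 TPM, than in *c-Kit*+ cells, 83.2 and 76.2 TPM. The balance of the cofactors within PRC2.2, by contrast, was similar. *Jarid2* held 67.9% and 71.7% of the summed *Jarid2* and *Aebp2* TPM in *c-Kit*+ cells and 69.6% and 69.0% in *c-Kit*- cells.

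**Figure D2:**
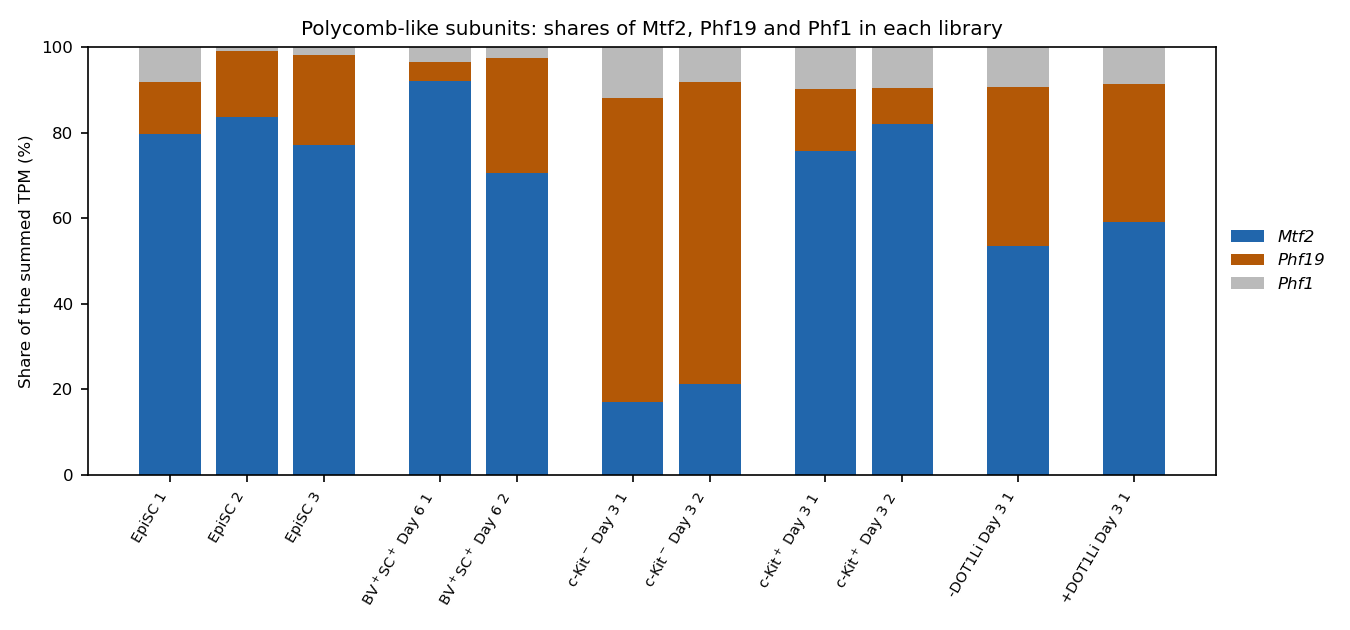
Shares (%) of *Mtf2*, *Phf19* and *Phf1* in the summed TPM of these 3 Polycomb-like genes, 1 bar per library, with the replicate number after the group name. *Phf19* holds 71.2% and 70.7% in the *c-Kit*- libraries, and *Mtf2* holds the larger share in the other libraries.

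The demethylases moved in opposite directions. *Kdm6a* (Utx) is an X-linked gene that escapes X inactivation and whose protein sits in the MLL3/MLL4 complexes at enhancers. It was at 61.0 and 58.6 TPM in *c-Kit*+ cells and at 28.6 and 43.2 TPM in *c-Kit*- cells. It was 1.80-fold higher in *c-Kit*+ cells (log2 0.85, SE 0.16, n = 2 and 2, edgeR adjusted p = 0.00249). *Kdm6b* (Jmjd3), an inducible demethylase that responds to signalling, was at 35.7 and 35.8 TPM in *c-Kit*+ cells and at 79.4 and 71.6 TPM in *c-Kit*- cells. It was 1.82-fold higher in *c-Kit*- cells (log2 −0.87, SE 0.11, n = 2 and 2, edgeR adjusted p = 0.00028). *Kdm6b* therefore made up 36.9% and 37.9% of the summed demethylase TPM in *c-Kit*+ cells and 73.5% and 62.4% in *c-Kit*- cells. Among other X-linked genes, *Ddx3x* was 1.44-fold higher in *c-Kit*+ cells (log2 0.52, SE 0.12, edgeR adjusted p = 0.00852), while *Eif2s3x* (log2 0.14), *Kdm5c* (log2 0.02) and *Xist* (log2 0.31) did not pass the test.

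Genes of the wider Polycomb system gave a mixed picture in the sorted cells, and their counts below stand against 20.2% of all genes called higher and 21.3% called lower in *c-Kit*+ cells. Of 6 further PRC2 genes, 4 were tested, and *Aebp2*, a PRC2.2 subunit, was the 1 that differed, being 1.45-fold higher in *c-Kit*+ cells (log2 0.53, SE 0.18, edgeR adjusted p = 0.042). The histone-binding subunits *Rbbp4* and *Rbbp7* and the PRC2.1 subunit *Epop* did not pass the test. Of 21 PRC1 genes, which encode the complex that ubiquitinates histone H2A, 19 were tested, with 8 called upward and 4 called downward in *c-Kit*+ cells, the latter a share near that of all genes. *Pcgf5* was 2.72-fold higher in *c-Kit*- cells (log2 −1.44, SE 0.21, edgeR adjusted p = 0.000513). *Scmh1*, at 46.6 and 37.5 against 9.31 and 8.00 TPM, was 4.47-fold higher in *c-Kit*+ cells (log2 2.16, SE 0.23, edgeR adjusted p = 8.98e-05), and *Bmi1* was 3.84-fold higher there (log2 1.94, SE 0.41, edgeR adjusted p = 0.00475).

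Of the 4 PR-DUB genes, whose complex removes the mark PRC1 sets, 3 were higher in *c-Kit*+ cells, where 20.2% of all genes were, and 1 did not pass the test. *Asxl1* was 2.22-fold higher (log2 1.15, SE 0.13, edgeR adjusted p = 0.000164) and *Asxl2* 2.01-fold higher (log2 1.01, SE 0.26, edgeR adjusted p = 0.012). Among 7 genes of the MLL3/MLL4 complexes and H3K27 acetyltransferases, 6 were tested, with 4 called upward (20.2% of all genes) and 1, *Ncoa6*, called downward (21.3%) in *c-Kit*+ cells. *Ep300*, an acetyltransferase acting on H3K27, was 2.02-fold higher in *c-Kit*+ cells (log2 1.01, SE 0.14, edgeR adjusted p = 0.000524), *Crebbp* 1.48-fold higher (log2 0.57, edgeR adjusted p = 0.0146), *Kmt2d* 1.40-fold higher (log2 0.49, edgeR adjusted p = 0.0242) and *Paxip1* 1.29-fold higher (log2 0.37, edgeR adjusted p = 0.0403). The increases of *Crebbp*, *Kmt2d* and *Paxip1* rest on the TMM-normalized counts: by TPM *Kmt2d* was at 29.8 and 21.9 in *c-Kit*+ cells and at 31.6 and 38.4 in *c-Kit*- cells, and the TPM values of *Paxip1* and *Crebbp* overlapped between the populations.

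Most of the 18 textbook Polycomb targets were too low to test, while 3 of 5 with enough counts were lower in *c-Kit*+ cells than in *c-Kit*- cells, as were 21.3% of all genes. *Cdkn2a*, which encodes the cell cycle inhibitor p16 and the p53 activator p19Arf, was at 11.2 and 3.68 TPM in *c-Kit*+ cells and at 152 and 114 TPM in *c-Kit*- cells. It was 16.3-fold higher in *c-Kit*- cells (log2 −4.03, SE 0.39, n = 2 and 2, edgeR adjusted p = 5.55e-05). Its neighbour *Cdkn2b*, which encodes p15, was at 3.88 and 5.05 TPM in *c-Kit*+ cells and at 71.4 and 61.2 TPM in *c-Kit*- cells (log2 −3.72, SE 0.33, edgeR adjusted p = 3.31e-05). *Irx3* was 1.69-fold higher in *c-Kit*- cells (log2 −0.75, SE 0.24, edgeR adjusted p = 0.0313). Among targets not tested, *Neurog2*, *Hand2*, *Foxf1*, *Pax3*, *Pax6* and *Olig2* were at 0 TPM in all 4 sorted libraries. The 18 targets summed to 63.5 and 48.4 TPM in *c-Kit*+ cells and to 273 and 228 TPM in *c-Kit*- cells, where *Cdkn2a* and *Cdkn2b* made up most of the sum and 9 and 12 targets were at 0. A relation between the levels of PRC2 genes and of these targets was not tested.

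Proliferation genes were higher in the same cells as *Ezh2*, whose transcription is known to follow the cell cycle. Of 12 replication and proliferation genes, 9 were higher in *c-Kit*+ cells, beside 20.2% of all genes, and 3 did not pass the test, with a median log2 fold change of 0.68. *Top2a* was 2.00-fold higher (log2 1.00, edgeR adjusted p = 0.000263), *Mcm6* 1.82-fold (log2 0.86, edgeR adjusted p = 0.000417), *Mcm4* 1.81-fold (log2 0.85, edgeR adjusted p = 0.000175) and *Pcna* 1.68-fold (log2 0.75, edgeR adjusted p = 0.000754). *Ezh2* (log2 0.84) and *Suz12* (log2 2.00) were also higher in *c-Kit*+ cells. What part proliferation had in the difference of *Ezh2* or of *Suz12* was not tested.

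The second comparison asks how Day 6 BV+SC+ cells, which carry both germ cell reporters, differ from the EpiSCs. Most PRC2 subunits were higher in BV+SC+ cells while *Ezh2* rose only slightly, and *Kdm6b* fell. Of the 10 members, 7 had an adjusted p below 0.05 in edgeR's quasi-likelihood test with Benjamini-Hochberg adjustment, beside 56.0% of the 11792 genes tested. Higher in BV+SC+ cells were 6 members, where 29.6% of all genes were, and lower was 1, *Kdm6b*, where 26.5% of all genes were. With edgeR in place of DESeq2, the threshold of the study's methods was passed by 6 members, *Phf19* among them, beside 35.0% of all genes. With DESeq2 itself it was passed by 5 members, and *Phf19* was not among them. The median log2 fold change of the members was 1.37, against 0.05 over all genes tested. The BV+SC+ libraries held several times the counts of the EpiSC libraries, so counting error at low levels is larger in EpiSCs.

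*Suz12* was at 63.5, 61.9 and 53.3 TPM in EpiSCs and at 138 and 179 TPM in BV+SC+ cells. It was 2.84-fold higher in BV+SC+ cells (log2 1.504, SE 0.15, n = 2 and 3, edgeR adjusted p = 0.000124). *Eed* was at 84.4, 55.2 and 74.2 TPM in EpiSCs and at 134 and 149 TPM in BV+SC+ cells, where it was 1.87-fold higher (log2 0.91, SE 0.18, n = 2 and 3, edgeR adjusted p = 0.00318). Neither gene overlapped between the groups, and the share of all genes that did not overlap was not counted. *Ezh2*, at 164, 147 and 157 TPM in EpiSCs and at 177 and 187 TPM in BV+SC+ cells, did not overlap either, but it was only 1.24-fold higher (log2 0.31, SE 0.11, n = 2 and 3, edgeR adjusted p = 0.0417). That call did not hold when any EpiSC library or BV+SC+ replicate 2 was left out (edgeR adjusted p between 0.0792 and 0.142), while the log2 fold change stayed between 0.23 and 0.39 in all alternatives.

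The methyltransferase paralogs therefore changed by different amounts. *Ezh1* was at 7.73, 11.4 and 8.20 TPM in EpiSCs and at 20.1 and 35.9 TPM in BV+SC+ cells, a 3.42-fold difference (log2 1.78, SE 0.26, n = 2 and 3, edgeR adjusted p = 0.000812). Even so, *Ezh2* still made up 89.8% and 83.9% of the summed *Ezh1* and *Ezh2* TPM in BV+SC+ cells, against 95.5%, 92.8% and 95.03% in EpiSCs. The ratio of *Suz12* to *Ezh2* was 0.388, 0.422 and 0.340 in EpiSCs and 0.775 and 0.958 in BV+SC+ cells. In both *c-Kit*+ cells and BV+SC+ cells the ratio was thus higher than in the group each was compared with, and the ratio itself was not tested.

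*Mtf2* was at 63.5, 68.2 and 55.0 TPM in EpiSCs and at 179.6 and 227 TPM in BV+SC+ cells, where it was the most abundant of the members. The difference was 3.59-fold (log2 1.84, SE 0.13, n = 2 and 3, edgeR adjusted p = 2.99e-05). Up to 6.9% of its exonic bases lie in exons of *Tmed5* on the opposite strand, a gene at 21.01 to 44.4 TPM in EpiSCs and at 28.6 and 28.4 TPM in BV+SC+ cells. *Jarid2* was at 74.7, 62.0 and 73.0 TPM in EpiSCs and at 157 and 206 TPM in BV+SC+ cells, a 2.53-fold difference (log2 1.34, SE 0.13, n = 2 and 3, edgeR adjusted p = 0.000126). As *Aebp2* was nearly level, with a log2 fold change of 0.22 (edgeR adjusted p = 0.193), *Jarid2* held 70.7% and 77.6% of their summed TPM in BV+SC+ cells and 52.2%, 49.5% and 56.5% in EpiSCs. *Mtf2* of PRC2.1 and *Jarid2* of PRC2.2 were thus higher in BV+SC+ cells. Not all subunits of these variants were: *Epop* of PRC2.1 was lower (log2 −0.90, edgeR adjusted p = 0.0014), and *Phf1* and *Phf19* did not pass the test.

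*Phf19* was the member on which the BV+SC+ libraries differed most. It was at 9.67, 12.6 and 15.0 TPM in EpiSCs, at 8.83 TPM in BV+SC+ replicate 1 and at 86.7 TPM in replicate 2. The 2 BV+SC+ libraries were 9.82-fold apart, more than all but 0.147% of the 13574 genes with over 1 TPM in either. The fitted log2 fold change of 1.92 (95% interval 0.17 to 3.68, edgeR adjusted p = 0.061) therefore rests on replicate 2: it was 2.79 without replicate 1 and −0.49 without replicate 2. With every library kept, it was called without the filter (log2 1.96, edgeR adjusted p = 3.7e-22) and with thinned counts (log2 1.80, edgeR adjusted p = 0.0353). The other alternatives that kept every library did not call it. No statement on *Phf19* in BV+SC+ cells as a group can be made from these 2 libraries. *Phf19* took 4.52% of the Polycomb-like pool in replicate 1 and 26.9% in replicate 2.

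*Phf1* was at 6.55, 0.82 and 1.33 TPM in EpiSCs, from 25, 3 and 4 counts, and at 6.81 and 8.18 TPM in BV+SC+ cells. EpiSC replicate 1 was close to the BV+SC+ libraries and apart from the other EpiSC libraries. The log2 fold change was 1.40 (95% interval −0.16 to 2.97, edgeR adjusted p = 0.112), and without EpiSC replicate 1 it was 2.90 (edgeR adjusted p = 0.00678). It was also called without BV+SC+ replicate 1 (log2 1.53, edgeR adjusted p = 0.0321; 0.00462 to 0.291 over all alternatives). *Cuta*, on the opposite strand, was at 91.5, 92.7 and 47.1 TPM in EpiSCs and at 122 and 93.1 TPM in BV+SC+ cells.

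*Kdm6b* was at 51.5, 56.0 and 57.5 TPM in EpiSCs and at 12.5 and 3.81 TPM in BV+SC+ cells. The groups were far apart, and the 2 BV+SC+ libraries also differed 3.29-fold from each other. *Kdm6b* was 6.67-fold lower in BV+SC+ cells (log2 −2.74, SE 0.41, n = 2 and 3, edgeR adjusted p = 0.000959). The log2 fold change was −3.74 without BV+SC+ replicate 1 and −2.14 without replicate 2, so the decrease was called with either library. *Kdm6a*, at 28.5, 24.9 and 27.6 TPM in EpiSCs and at 22.5 and 24.4 TPM in BV+SC+ cells, had a log2 fold change of −0.22 (95% interval −0.53 to 0.09, edgeR adjusted p = 0.19). The demethylases together were at 80.0, 80.9 and 85.1 TPM in EpiSCs and at 35.0 and 28.2 TPM in BV+SC+ cells. *Kdm6b* made up 64.4%, 69.2% and 67.6% of this sum in EpiSCs and 35.8% and 13.5% in BV+SC+ cells.

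**Figure D3:**
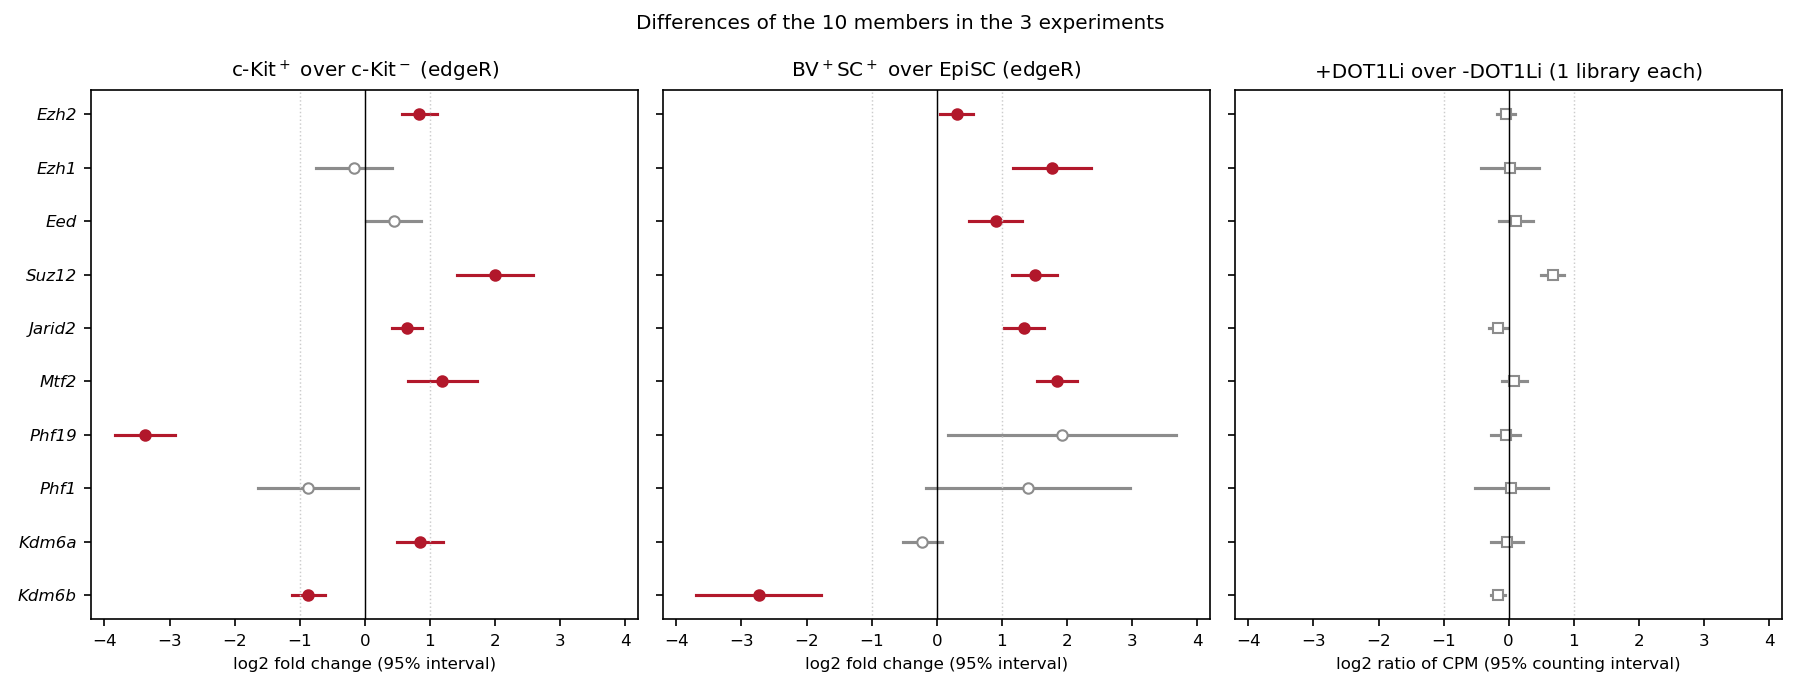
Log2 differences of the 10 members with 95% intervals in the 3 experiments: edgeR fold changes for the sorted cells and for BV+SC+ cells over EpiSCs (filled red, adjusted p below 0.05; open grey, not), and the ratio of CPM of the 2 DOT1Li libraries with intervals for counting error only (squares). *Suz12*, *Mtf2* and *Jarid2* lie to the right in both tested experiments, *Kdm6b* to the left in both, and with DOT1Li no member reaches the dotted lines at 2-fold.

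Among the 6 further PRC2 genes, 5 were tested in this experiment, 2 were higher and 1 was lower in BV+SC+ cells, close to the 29.6% and 26.5% of all genes. *Rbbp7*, the most abundant of them, was 1.23-fold higher in BV+SC+ cells (log2 0.29, SE 0.10, edgeR adjusted p = 0.0377). *Epop*, a PRC2.1 subunit, was at 80.2, 70.0 and 89.8 TPM in EpiSCs and at 42.1 and 39.3 TPM in BV+SC+ cells, a 1.86-fold decrease (log2 −0.90, SE 0.15, edgeR adjusted p = 0.0014). *Ezhip*, which encodes an inhibitor of EZH2 found in gonads, was too low to test: it was at 0.36, 0.37 and 0.45 TPM in EpiSCs, at 1.60 and 5.23 TPM in BV+SC+ cells and at 0 in all 4 sorted libraries.

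Of the 20 PRC1 genes tested, 7 were higher and 8 lower in BV+SC+ cells, where 29.6% and 26.5% of all genes were. *Phc1*, a polyhomeotic subunit, was at 547, 506 and 484 TPM in EpiSCs and at 127 and 267 TPM in BV+SC+ cells, a 2.27-fold decrease (log2 −1.19, SE 0.28, edgeR adjusted p = 0.00844). *Yaf2* fell 5.14-fold (log2 −2.36, SE 0.29, edgeR adjusted p = 0.000369). *Pcgf5*, at 8.66, 11.2 and 7.62 TPM in EpiSCs and at 37.1 and 47.3 TPM in BV+SC+ cells, rose 4.89-fold (log2 2.29, SE 0.27, edgeR adjusted p = 0.000271), and *Bmi1* rose 6.88-fold in counts (log2 2.78, SE 0.57, edgeR adjusted p = 0.00404). By TPM the difference of *Bmi1* was smaller, from 3.53, 3.08 and 3.61 in EpiSCs to 14.4 and 5.54 in BV+SC+ cells. Of the PR-DUB genes, *Asxl2* was 1.56-fold higher (log2 0.64, edgeR adjusted p = 0.00852) and *Bap1*, the catalytic subunit, 1.41-fold lower (log2 −0.50, edgeR adjusted p = 0.00695), while the other 2 did not pass the test.

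All 7 genes of the MLL3/MLL4 and acetyltransferase list were tested, and 3 were higher and 1 lower in BV+SC+ cells, where 29.6% and 26.5% of all genes were. *Kmt2c*, the MLL3 methyltransferase, was 2.68-fold higher (log2 1.42, SE 0.14, edgeR adjusted p = 0.000114). *Ncoa6* was 1.52-fold higher in counts (log2 0.61, edgeR adjusted p = 0.0263), although its TPM in BV+SC+ cells, 39.2 and 26.8, lay within the range of EpiSCs, 13.6 to 44.4. *Crebbp* was 1.31-fold higher (log2 0.39, edgeR adjusted p = 0.0266) and *Paxip1* 1.31-fold lower (log2 −0.38, edgeR adjusted p = 0.0377). Of the 18 Polycomb targets, 4 were tested and 2 were higher in BV+SC+ cells, beside 29.6% of all genes, among them *Cdkn2a*. It was at 3.49, 0.91 and 4.36 TPM in EpiSCs and at 15.8 and 9.44 TPM in BV+SC+ cells (log2 2.18, SE 0.59, edgeR adjusted p = 0.015). The summed level of the 18 targets was low in both groups, 26.6, 22.5 and 30.5 TPM in EpiSCs and 39.7 and 41.8 TPM in BV+SC+ cells.

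Proliferation genes differed in both directions here. Of 12 such genes, 1 was higher and 4 were lower in BV+SC+ cells, beside 29.6% and 26.5% of all genes, with a median log2 fold change of −0.10. *Mki67* was the higher gene (log2 0.37, edgeR adjusted p = 0.0457), and *Top2a* did not pass the test (log2 0.46, edgeR adjusted p = 0.0514). *Cdk1*, whose TPM overlapped between the groups, was 1.69-fold lower in counts (log2 −0.76, edgeR adjusted p = 0.00515), *Mcm5* 1.45-fold lower (log2 −0.54, edgeR adjusted p = 0.00605), *Mcm2* 1.44-fold lower (log2 −0.53, edgeR adjusted p = 0.00749) and *Pcna* 1.36-fold lower (log2 −0.45, edgeR adjusted p = 0.0129). On the sex chromosomes, *Eif2s3y* was 2.27-fold higher in BV+SC+ cells (log2 1.18, edgeR adjusted p = 0.000138), *Kdm5d* 1.95-fold higher (log2 0.97, edgeR adjusted p = 0.0162) and *Uty*, the Y-linked relative of *Kdm6a*, 1.71-fold higher (log2 0.77, edgeR adjusted p = 0.0109). *Kdm5c* was 1.78-fold lower (log2 −0.83, edgeR adjusted p = 0.000823) and *Eif2s3x* 1.28-fold lower (log2 −0.35, edgeR adjusted p = 0.0129), whereas *Ddx3y* (log2 0.08) and *Ddx3x* (log2 −0.31) did not pass the test. *Uty* was at 10.2, 16.8 and 13.3 TPM in EpiSCs and at 20.4 and 15.6 TPM in BV+SC+ cells, so its RNA came on top of that of *Kdm6a* in these cells and was at most 0.20 TPM in the sorted cells.

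The third comparison asks what the DOT1L inhibitor changes by Day 3. With 1 library per condition there is no replicate check and no test, and the intervals cover counting error only. None of the 10 members differed more than 2-fold on the scale of log2(TPM + 1), while 9.78% of the 14038 genes with more than 1 TPM in either library did. This holds for TPM with either pseudocount tried, for counts scaled to the library total (CPM) and for TPM rescaled by TMM factors. The median log2 difference of the members was −0.02, against 0.01 over all genes.

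*Suz12* was the member that differed most, at 63.0 TPM with DOT1Li and 41.5 TPM without (log2 0.59). Its ratio of CPM was 1.60 (exact binomial 95% interval 1.41 to 1.81), and 19.8% of genes differed more. *Mtf2* was at 68.0 TPM with DOT1Li and 55.8 TPM without, with a CPM ratio of 1.06 (0.928 to 1.22). *Ezh2* was at 156 and 171 TPM (0.971, 0.884 to 1.07), and *Eed* at 53.3 and 50.1 TPM (1.08, 0.904 to 1.296), with and without DOT1Li. Of the subunits of the core, the counting interval thus excluded equality at *Suz12* only.

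*Kdm6b* was at 81.4 TPM with DOT1Li and 89.6 TPM without (CPM ratio 0.895, 0.83 to 0.965), and *Jarid2* was at 74.5 and 77.4 TPM (0.892, 0.814 to 0.977). Both were slightly lower with DOT1Li beyond counting error, which leaves out the spread between cultures. On the scale of log2(TPM + 1), 66.8% of genes differed more than *Kdm6b* and 85.7% more than *Jarid2*. *Phf19* was at 37.3 and 38.8 TPM (0.967, 0.827 to 1.13) and *Kdm6a* at 20.6 and 21.2 TPM (0.986, 0.832 to 1.17). *Ezh1*, at 10.7 and 9.37 TPM (1.02, 0.744 to 1.39), and *Phf1*, at 9.99 and 9.89 TPM (1.03, 0.70 to 1.51), had the widest intervals, so smaller differences of these genes were not detectable at this depth. The Polycomb-like shares differed little: *Mtf2* held 59.0% with and 53.4% without DOT1Li, and *Phf19* 32.3% and 37.1%.

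The counts of the lists around PRC2 stand against the 9.78% of all genes that differed more than 2-fold. Of 21 PRC1 genes, 1 did so: *Cbx7*, the chromodomain protein of PRC1 in pluripotent cells, was at 37.7 TPM with DOT1Li and 11.03 TPM without (CPM ratio 2.41, 1.91 to 3.07). Of 9 Polycomb targets that passed the filter, 2 were lower and 1 higher with DOT1Li by more than 2-fold. *Foxf1*, a mesoderm factor, was at 3.75 TPM with and 18.3 TPM without DOT1Li (CPM ratio 0.209, 0.125 to 0.334), and *Pax3* at 1.65 and 7.75 TPM (0.244, 0.128 to 0.435). *Olig2* was at 1.01 TPM with DOT1Li, from 6 counts, and 0 without. Among germ cell markers 4 of 5 that passed the filter were higher by more than 2-fold, among them *Tfap2c* at 105 and 35.5 TPM, while 2 of 7 trophoblast markers were lower, *Cdx2* at 53.0 and 107.8 TPM and *Tfap2a* at 39.1 and 84.9 TPM. No gene of the further PRC2, PR-DUB, MLL3/MLL4, sex chromosome or proliferation lists passed 2-fold in these 2 libraries.

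Set side by side across the experiments, *Suz12* was higher in the group with more germ cell marker RNA in each: in *c-Kit*+ cells, in BV+SC+ cells and, without a test, with DOT1Li. *Kdm6b* was lower in the same groups, by 1.82-fold, 6.67-fold and, in CPM and without a test, to 0.895 of the level without DOT1Li. That last difference was small: by log2(TPM + 1), 66.8% of genes differed more between the DOT1Li libraries. *Phf19* was low in *c-Kit*+ cells, high in *c-Kit*- cells, intermediate in unsorted Day 3 cells and of unsettled level in BV+SC+ cells. *Ezh2* stood between 141 and 187 TPM in all groups except *c-Kit*- cells. By TPM, the order of *Kdm6b* from high to low was unsorted Day 3 cells (with and without DOT1Li), *c-Kit*- cells, EpiSCs, *c-Kit*+ cells and BV+SC+ cells. Neighbouring groups in that order came from different experiments, so no step between them was tested.

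The genes whose levels most resembled those of *Ezh2* and *Kdm6b* were sought over the 7 libraries that share a gene list, by Pearson's r of log2(TPM + 1) among genes with a mean of at least 5 TPM. These libraries fall into groups, and no p is given. For *Kdm6b* they were *Ube2m*, a NEDD8-conjugating enzyme (r = 0.998), *Atp6v0c*, a proton pump subunit (r = 0.998), and the receptor gene *Igf1r* (r = 0.998), all low in BV+SC+ cells. For *Ezh2*, whose levels hardly vary in these libraries, they were *Arid4b* (r = 0.977), the transcription elongation kinase *Cdk9* (r = 0.9747) and *Trmt13* (r = 0.974).

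The members are spread over the genome (build GRCm38), with *Suz12* (chr11:79993106-80034123), *Ezh1* (chr11:101191115-101226463) and *Kdm6b* (chr11:69398508-69413675) on chromosome 11 but far apart. *Ezh2* lies at chr6:47530139-47595341, *Eed* at chr7:89954654-89980983, *Mtf2* at chr5:108065674-108109004, *Jarid2* at chr13:44729474-44921643, *Phf19* at chr2:34893757-34914026, *Phf1* at chr17:26933052-26937908 and *Kdm6a* at chrX:18162575-18279936. No transcript of a member shares at least 98% of the sequence over 75 or more bases with another gene on the same strand, so reads were not divided between near-identical copies. On the opposite strand, *Ezh2*, *Eed*, *Suz12* and *Kdm6b* overlap non-coding genes that were at most 4.69 TPM in any library.

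Promoter sequences from RefSeq (GRCm38.p6, 250 bases before to 50 after the start of a gene) were matched for 9 of the 10 members, with 11 promoters in all. Since *Ezh2*, *Suz12* and replication genes were all higher in *c-Kit*+ cells, the promoters were searched on both strands for TTTCCCGC and TTTGGCGC, forms of the binding motif of E2F factors, which control genes of the cell cycle. One or the other was present in 3 of the 11 member promoters, those of *Suz12*, *Ezh2* and *Phf19*, and in 1.56% of all 32851 promoters. G and C made up 71.0%, 64.3% and 74.3% of the bases of these 3 promoters, against a median of 52.67% over all promoters. The part of base composition in these matches was not tested. The 3 promoters are shown 5′ to 3′ on the strand of the gene, with the motif in capitals; in *Phf19* it lies on the reverse strand. They come from chr11:79992856-79993155 (*Suz12*, plus strand), chr6:47594981-47595280 (*Ezh2*, minus strand) and chr2:34913927-34914226 (*Phf19*, minus strand).
Suz12: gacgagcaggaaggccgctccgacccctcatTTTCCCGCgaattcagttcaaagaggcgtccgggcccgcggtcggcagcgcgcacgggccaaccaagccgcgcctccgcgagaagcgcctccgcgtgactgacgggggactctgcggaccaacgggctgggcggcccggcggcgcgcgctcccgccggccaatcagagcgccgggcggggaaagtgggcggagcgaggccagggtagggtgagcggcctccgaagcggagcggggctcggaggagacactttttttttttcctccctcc
Ezh2: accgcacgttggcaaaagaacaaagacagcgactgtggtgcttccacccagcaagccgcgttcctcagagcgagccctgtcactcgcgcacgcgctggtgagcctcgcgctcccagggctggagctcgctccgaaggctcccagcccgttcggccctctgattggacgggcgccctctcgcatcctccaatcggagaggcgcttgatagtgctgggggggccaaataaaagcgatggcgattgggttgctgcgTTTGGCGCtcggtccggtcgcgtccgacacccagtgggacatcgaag
Phf19: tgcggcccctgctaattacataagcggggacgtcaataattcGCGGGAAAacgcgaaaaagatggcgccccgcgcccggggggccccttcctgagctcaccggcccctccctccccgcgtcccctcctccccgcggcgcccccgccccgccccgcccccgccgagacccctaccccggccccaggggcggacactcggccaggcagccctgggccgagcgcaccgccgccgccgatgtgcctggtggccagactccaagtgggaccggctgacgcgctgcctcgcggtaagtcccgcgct
Relative to the start, the motif lies at position −219 in *Suz12*, at −208 in *Phf19* and at 3 in *Ezh2*. The 3 genes with the motif did not move together: *Suz12* and *Ezh2* were higher in *c-Kit*+ cells and *Phf19* in *c-Kit*- cells. No promoter of *Mtf2*, which rose with *Suz12* in both tested experiments, holds either form in this window. A match describes the letters and not a bound site.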

How the data were processed

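The 11 bulk RNA-seq libraries were grouped by the labels. No single-cell, chromatin accessibility or ChIP data were used. The authors aligned reads to a transcriptome with Bowtie2 and deposited expected counts per gene from RSEM (version 1.3.1 in the submitters' processing notes), not normalized between libraries. The deposited TPM values were computed by RSEM from these counts and effective lengths. The sorted libraries list other genes than the rest, so tests were run within an experiment. The labels name total RNA libraries without ribosomal RNA for the EpiSC, BV+SC+ and DOT1Li samples, and the methods name an mRNA kit.

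Expected counts were rounded and tested with edgeR 4.0.16 under R 4.3.3 (glmQLFit and glmQLFTest after filterByExpr and TMM), with Benjamini-Hochberg adjustment over all genes; the standard error is the log2 fold change divided by the root of F. For the DOT1Li pair, log2 ratios of TPM with a pseudocount of 1 were taken for genes over 1 TPM in at least 1 library. Counting intervals are exact binomial at 95%, scaled by library totals, and cover counting error only. The scripts were tested on simulated data. Replicates were checked by a chi-square comparison of their counts (statistic per degree of freedom from 2.01 to 45.3), so no library was present more than once within a group. Libraries of different groups, among them the DOT1Li pair, were not compared in this way. Symbols and coordinates came from GENCODE M21, which named 99.56% and 98.25% of the identifiers, and look-alike transcripts from BLAST+ 2.17.0. The members and lists were chosen with earlier results of these data known. Beside the members, up to 4 called genes per list and comparison with a mean of at least 5 TPM (no minimum for Polycomb targets) and all sex chromosome genes are named, in order of fold change. As alternatives, the tests were repeated with DESeq2 1.42.0, with RLE factors, without filter, with at least 10 counts in every library, an effective length offset, the replicate number as a block, thinned counts, each library left out, and for DOT1Li a pseudocount of 0.1, all genes, CPM and TMM-rescaled TPM. Plots used Matplotlib.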

Additional observations from a re-analysis of the deposited data

How the results depend on the processing

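The number of genes called in the sorted cells fell from 4574 to 2755 with DESeq2, and the DOT1Li genes past 2-fold fell from 1373 to 817 with CPM; with a pseudocount of 0.1 they were 1958. The number of members called stayed at 7 with DESeq2 in both tested experiments. With each library left out, members called ranged from 7 to 8 in the sorted cells and from 6 to 9 in BV+SC+ cells over EpiSCs, members past the study threshold from 2 to 5 and from 5 to 8, and genes called from 3078 to 5102 and from 5482 to 7920. A fit without 1 library of a pair assumes that the lone library varies like the other group. Signs turned for *Ezh1* without *c-Kit*- replicate 1 (log2 0.10; −0.42 without replicate 2) and for *Phf19* without BV+SC+ replicate 2 (log2 −0.49; 2.79 without replicate 1). The cause of these changes was not tested.

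Same-numbered libraries share only a number: the deviations of same-numbered sorted libraries from their means had a correlation of 0.055 across genes. With the replicate number as a block, 4871 genes and 7 members were called in the sorted cells and 5293 genes and 6 members in BV+SC+ cells over EpiSCs, where *Ezh2* lost its call (log2 0.30). It also lost it with the effective length offset (log2 0.31). *Phf1* and *Ezh1* had few counts in several libraries, and the part of depth in their results was not tested. With counts thinned to the shallowest library, *Ezh1* stayed called in BV+SC+ cells over EpiSCs (log2 1.79, edgeR adjusted p = 0.000667). *Phf1* was not called there (log2 1.57, edgeR adjusted p = 0.0647).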

Other observations

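Other marker lists were measured in the same libraries as the PRC2 genes. The 6 naive pluripotency markers summed to 42.2, 8.94 and 5.93 TPM in EpiSCs and to 553 and 500.2 TPM in BV+SC+ cells. In edgeR's test 5 of the 6 were higher in BV+SC+ cells, where 29.6% of all genes were called higher and 26.5% lower. The 5 primed epiblast markers summed to 33.4 and 97.7 TPM in BV+SC+ cells, with 4 of 5 lower than in EpiSCs, beside 26.5% of all genes. The 8 trophoblast markers summed to 129.9 and 40.4 TPM in BV+SC+ cells and to 33.1, 20.7 and 22.4 TPM in EpiSCs. All 3 that were tested, *Gata2*, *Krt8* (log2 1.78) and *Krt18* (log2 1.35), were higher in BV+SC+ cells, beside 29.6% of all genes. The 7 fibroblast markers summed to 55.9 and 44.5 TPM in *c-Kit*+ cells, to 165 and 139.6 TPM in *c-Kit*- cells, and to 289 TPM with and 279 TPM without DOT1Li, led in the DOT1Li libraries by *Col1a1*. The 5 endoderm markers summed to 12.04 and 1.14 TPM in *c-Kit*+ cells and to 19.9 and 31.6 TPM in *c-Kit*- cells. Their part in the differences of PRC2 genes was not tested.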
